A study of Mus musculus with 6 samples.

Results

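The genes described here are *Egfr*, which encodes the epidermal growth factor (EGF) receptor, its relatives *Erbb2* and *Erbb3*, the ligands *Hbegf*, *Areg*, *Ereg*, *Tgfa*, *Btc* and *Epgn*, and the feedback inhibitor *Errfi1*. They were taken by name, as genes that drive keratinocyte migration and wound repair. All 10 were found among the 21368 genes that had a named probe, and 12 probes carried their names. RNA was measured in primary keratinocytes cultured from newborn pups. In knockout pups Krt14-Cre, active in basal epidermal cells, had deleted floxed *Sox4* (Sox4 cKO), *Sox11* (Sox11 cKO) or both (dcKO). Per the study's methods the floxed parental line was of a mixed 129SvEx:C57BL/6 background and also lacked *Sox12*. It was crossed to a Cre line of FVB/N background. The sources do not say whether the cultured pups kept the *Sox12* deletion. Each of the 6 arrays, 2 per genotype, set knockout RNA against wild-type control RNA in the other colour, with the dyes exchanged between replicates. No treatment or wound was applied, and the cells had been grown on J2 fibroblast feeders and then passaged without them. Ratios are log2 of knockout over wild type on the same array, and a gene was called changed at a limma adjusted p below 0.05 and a log2 fold change above 1.5 in size.

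The EGF receptor is a tyrosine kinase at the cell surface that signals when a ligand brings receptors together as pairs. Its ligands are made as membrane-bound precursors and are released by metalloproteases such as ADAM17, and ERBB2, which binds no known ligand, and ERBB3, whose kinase is weak, act as partners in those pairs. The signal runs through RAS and the kinases RAF, MEK and ERK to immediate-early transcription factors and to phosphatases that shut it off. In epidermis this receptor is known for driving keratinocyte growth and the movement of cells over a wound, and several of its ligands are themselves induced by the signal.

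*Epgn*, *Ereg*, *Areg* and *Btc* lie next to one another on mouse chromosome 5, in that order, with the non-coding genes *Gm19610*, *Gm23092* and *Gm19619* among them. From the RefSeq promoter table for GRCm38.p6, 8 start sites of 7 of the 10 genes were read, and none of *Erbb3*, *Hbegf* and *Ereg*. The search excluded a chromosome for the 10 genes, so a gene without a window may still be in that table. The 250 bases before the start of 3 neighbours are shown because they run from a called ligand to one that was not detected. *Areg* is the ligand called in dcKO cells, *Epgn* is bright but varied between arrays, and *Btc* was not well above background. Capitals mark matches to the motifs searched, on either strand.
*Areg*, chr5:91139349-91139598, plus strand: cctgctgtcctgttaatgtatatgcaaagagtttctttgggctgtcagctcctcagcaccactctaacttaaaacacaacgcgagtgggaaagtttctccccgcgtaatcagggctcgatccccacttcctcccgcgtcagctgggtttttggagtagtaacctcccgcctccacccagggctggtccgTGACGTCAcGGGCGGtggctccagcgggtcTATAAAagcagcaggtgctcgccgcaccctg
*Epgn*, chr5:91027267-91027516, plus strand: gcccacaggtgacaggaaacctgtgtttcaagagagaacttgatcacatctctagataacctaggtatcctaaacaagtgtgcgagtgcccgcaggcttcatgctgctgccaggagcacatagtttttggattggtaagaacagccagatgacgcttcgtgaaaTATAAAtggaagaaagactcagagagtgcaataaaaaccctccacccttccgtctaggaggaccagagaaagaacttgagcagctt
*Btc*, chr5:91402995-91403244, minus strand: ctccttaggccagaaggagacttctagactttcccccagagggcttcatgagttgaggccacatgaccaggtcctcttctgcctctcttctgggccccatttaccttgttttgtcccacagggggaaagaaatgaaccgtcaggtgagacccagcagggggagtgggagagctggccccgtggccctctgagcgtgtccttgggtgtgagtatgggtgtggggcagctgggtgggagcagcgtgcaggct
The *Areg* window held a cAMP response element, TGACGTCA, beginning 61 bases before the start, a GC box, GGGCGG, at 52 bases and a TATA box, TATAAA, at 31 bases. Of all 32851 windows of this length, 1.55% held that cAMP response element, 32.7% the GC box and 12.4% the TATA box. The *Epgn* window held a TATA box match at 86 bases, and the *Btc* window held none of the motifs. One of 2 *Errfi1* starts also had the response element, at 51 bases, with a TATA box match at 28 bases and 3 GC box matches. The SOX core AACAAAG matched in 0 of the 8 windows, against 5.03% of all windows, and the AP-1 motif TGANTCA in 0 of 8, against 6.75%. These matches describe letters in a window and are not measured binding sites.

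Of 55681 probes, 35.1% to 42.8% per array stood well above background in knockout RNA and 37.3% to 45% in wild-type RNA. The targeted genes followed their labels, with *Sox4* at -2.52 in both Sox4 cKO and dcKO cells and *Sox11* at -2.98 in Sox11 cKO and -3.43 in dcKO cells. All 8 basal keratinocyte markers were detected in both channels of every array. Of 8 fibroblast markers at most 1 was, and *Col1a1*, *Col3a1*, *Pdgfrb*, *Lum* and *Thy1* were well above background on 0 arrays, with a mean log2 level of the list between 4.87 and 5.16 in every channel. The fibroblast marker *Col1a2* was well above background on 6 arrays in knockout RNA and 5 in wild-type RNA. Between 1 and 3 of 5 melanocyte markers and 2 of 6 immune markers were well above background. Of melanocyte markers, *Pmel* was so on 6 arrays in knockout and 5 in wild-type RNA, and *Mlana* on 5 and 6. Of immune markers, *Cd3e* and *Csf1r* were so on 6 arrays in both. *Dct* and *Tyrp1* of melanocytes and *Cd207* and *Adgre1* of immune cells were not well above background on any array. Precision is limited by 2 arrays per genotype, and the labels do not say whether wild-type RNA came from separate cultures.

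*Areg*, which encodes amphiregulin, a ligand of the EGF receptor that keratinocytes release and respond to, lay on opposite sides of wild type in Sox4 cKO and dcKO cells. In dcKO cells its log2 ratios were -1.61 and -2.62, below 0 on both arrays. The fitted log2 fold change was -2.12 ± 0.24 (SE, n = 2 arrays), or 4.33 times lower, and *Areg* was the 1 of 10 genes called in that comparison (limma adjusted p = 0.00928). By the same rule 1.39% of all genes were called in dcKO cells, and 0.833% were called lower. In Sox4 cKO cells the ratios were 1.54 and 1.94, and the fitted value of 1.74 ± 0.24 (SE, n = 2 arrays), a 3.35-fold difference, missed the threshold (limma adjusted p = 0.0599). In Sox11 cKO cells the ratios were -0.32 and -1.11, with a fitted value of -0.71 ± 0.24 (SE, n = 2 arrays; limma adjusted p = 0.557). The 2 arrays of each genotype lay on the same side of 0, and the arrays of Sox4 cKO did not overlap those of the other genotypes. The probe (A_52_P482897) was well above background in both channels of all 6 arrays. The dcKO call was lost with 1 dcKO array left out, at -2.52 without replicate 1 (limma adjusted p = 0.0889) and at -1.71 without replicate 2 (limma adjusted p = 0.202), and with an offset of 50, at -1.94 (limma adjusted p = 0.0643). It was also lost with the scanner software's processed signals, at -2.46 (limma adjusted p = 0.236), under which 0 probes of all were called in dcKO cells. In bulk RNA, fewer cells that make a transcript and less of it per cell cannot be told apart.

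**Figure D1:**
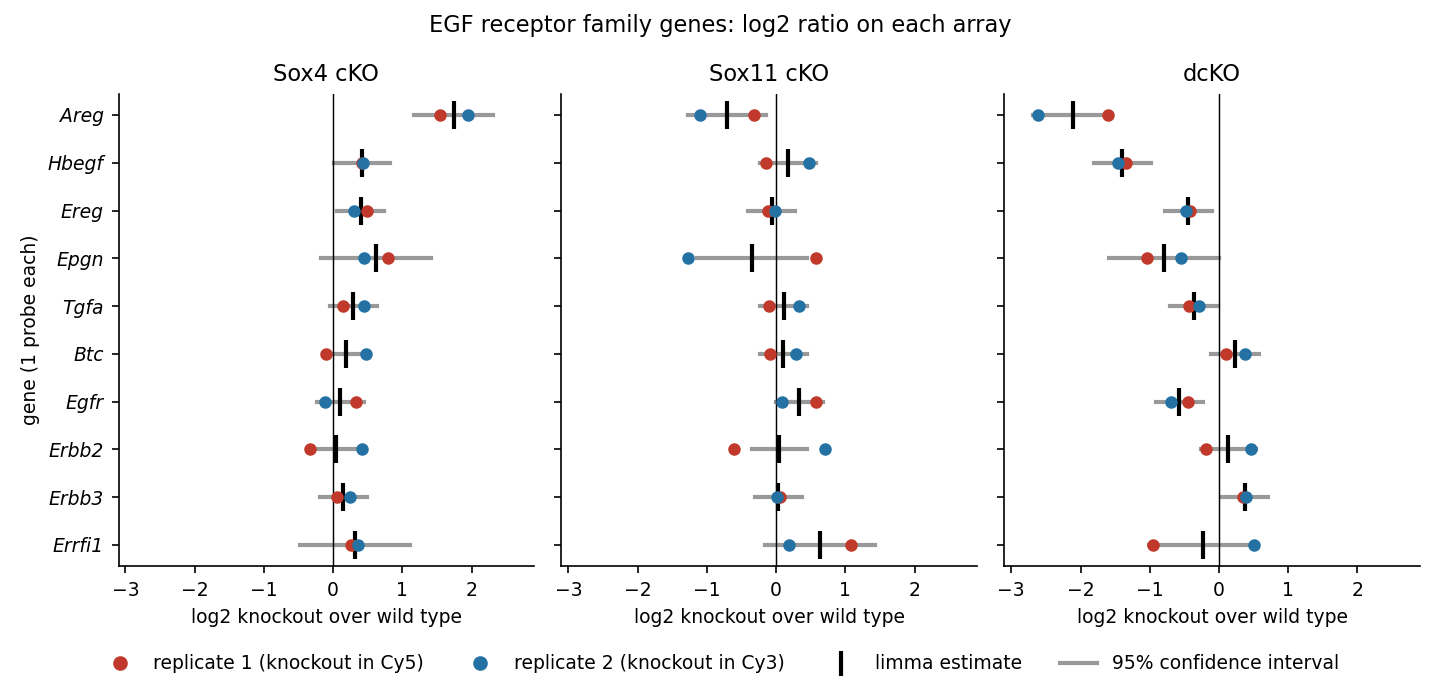
Log2 ratio of knockout over wild type (horizontal axis) for 10 genes, 1 panel per genotype. Points are the 2 arrays of a genotype, black bars the limma estimates and grey lines their 95% confidence intervals. *Areg* lies at 1.54 and 1.94 in Sox4 cKO cells and at -1.61 and -2.62 in dcKO cells, *Hbegf* lies at -1.34 and -1.45 in dcKO cells, and every other value lies between -1.27 and 1.08.

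*Hbegf*, which encodes heparin-binding EGF-like growth factor, a ligand known for its part in closing skin wounds, was lower in dcKO cells only by the adjusted p and not by the fold limit. Its log2 ratios were -1.34 and -1.45, close together on the 2 arrays. The fitted value was -1.40 ± 0.17 (SE, n = 2 arrays), or 2.63 times lower (limma adjusted p = 0.0116), which is short of the limit of 1.5. Without a fold limit 2 of the 10 genes, *Areg* and *Hbegf*, were lower in dcKO cells, against 2.14% of all genes. In Sox4 cKO cells the ratios were 0.41 and 0.43, with a fitted value of 0.42 ± 0.17 (SE; limma adjusted p = 0.661). In Sox11 cKO cells they were -0.14 and 0.48, on either side of 0, with a fitted value of 0.17 ± 0.17 (SE; limma adjusted p = 0.966). The dcKO arrays did not overlap those of the single knockouts. With the ratios centred on each array's median in place of loess, *Hbegf* was called in dcKO cells, at -1.95 (limma adjusted p = 0.00144). That setting lowered the dcKO estimates of all the 10 genes but *Btc*. The adjusted p was lost with an offset of 50, at -1.38 (limma adjusted p = 0.0608), and with the scanner software's processed signals, at -1.61 (limma adjusted p = 0.203). Without dcKO replicate 1 or 2 the adjusted p was 0.129 or 0.232 (limma).

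The other ligands were not called in any genotype. *Ereg*, which encodes epiregulin, had dcKO ratios of -0.41 and -0.47, Sox4 cKO ratios of 0.49 and 0.30, and Sox11 cKO ratios of -0.11 and -0.01. Its dcKO estimate was -0.44 ± 0.15 (SE; limma adjusted p = 0.226), the same in sign as *Areg* and smaller. *Tgfa*, which encodes transforming growth factor alpha, had dcKO ratios of -0.43 and -0.29 and an estimate of -0.36 ± 0.15 (SE; limma adjusted p = 0.346). Its probe was printed in 10 spots, and the SD between those spots on an array ran from 0.13 to 0.26. *Epgn*, which encodes epigen, had dcKO ratios of -1.05 and -0.55 and Sox4 cKO ratios of 0.79 and 0.45, while its Sox11 cKO ratios of 0.58 and -1.27 lay on opposite sides of 0. The *Epgn* estimate in dcKO cells was -0.80 ± 0.34 (SE; limma adjusted p = 0.383). *Btc*, which encodes betacellulin, was not well above background in either channel of any array, so no change in it could be measured. With median centring in place of loess the dcKO estimates were larger, at -0.94 for *Ereg* (limma adjusted p = 0.0146), -0.65 for *Tgfa* (limma adjusted p = 0.0422) and -1.36 for *Epgn* (limma adjusted p = 0.0659), all short of the fold limit. The same setting also moved *Areg*, *Hbegf*, *Egfr*, *Erbb2* and *Errfi1* down in dcKO cells, so the shift was not particular to these ligands.

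The receptors gave no call in any genotype against wild type. *Egfr* had log2 ratios of -0.45 and -0.70 in dcKO cells, 0.33 and -0.12 in Sox4 cKO cells and 0.58 and 0.09 in Sox11 cKO cells at its brightest probe (A_52_P106259). Only the dcKO arrays were both below 0, and the dcKO estimate was -0.57 ± 0.15 (SE; limma adjusted p = 0.115), with a 95% confidence interval from -0.91 to -0.23. That probe was printed in 10 spots that differed little within an array, with an SD between 0.05 and 0.12. The other 2 *Egfr* probes gave dcKO estimates of -0.07 and 0.14, so the probes of this gene disagreed. *Erbb2* followed the dye and not the genotype, with ratios of -0.34, -0.61 and -0.19 on the arrays with the knockout in Cy5 and 0.41, 0.70 and 0.46 on those with the knockout in Cy3. Its estimates were 0.04, 0.05 and 0.14 in Sox4 cKO, Sox11 cKO and dcKO cells, each with an SE of 0.17. *Erbb3* was near background. On the dcKO arrays its probe stood well above background in knockout RNA on 1 of 2 and in wild-type RNA on 0 of 2, and its dcKO ratios were 0.35 and 0.39 (estimate 0.37 ± 0.14, SE; limma adjusted p = 0.321). With median centring in place of loess *Egfr* stood at -1.12 in dcKO cells (limma adjusted p = 0.0109), past the adjusted p and short of the fold limit, and *Erbb2* at -0.37 (limma adjusted p = 0.228).

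*Errfi1* encodes MIG6, an inhibitor that binds the activated EGF receptor and that the receptor's own signal induces. Its log2 ratios were -0.95 and 0.50 in dcKO cells, 1.08 and 0.19 in Sox11 cKO cells and 0.26 and 0.36 in Sox4 cKO cells. The dcKO arrays lay on opposite sides of 0, and the estimate of -0.23 ± 0.34 (SE; limma adjusted p = 0.886) was smaller than their spread. With median centring it was -0.78 (limma adjusted p = 0.272). Across all 10 genes the median estimate was 0.30, 0.08 and -0.40 in Sox4 cKO, Sox11 cKO and dcKO cells, against 0.00, -0.00 and -0.01 over all genes. Limma called 0 of the 10 genes in either single knockout, where 3 (Sox4 cKO) and 1 (Sox11 cKO) had an unadjusted p below 0.05, and the share of all genes called was 0.164% and 0.178%.

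The genotypes were then set against each other, to ask whether losing both factors differed from losing either. These contrasts share arrays, so they are not independent of the values above. *Areg* was lower in dcKO than in Sox4 cKO cells by a log2 difference of -3.86 ± 0.34 (SE; limma adjusted p = 0.00885), and *Hbegf* by -1.82 ± 0.25 (SE; limma adjusted p = 0.0304). These 2 of 10 were called, against 1.03% of all genes called in either direction and 0.59% called lower in dcKO cells. The *Areg* difference lost its call without dcKO replicate 2, at -3.45 (limma adjusted p = 0.0626), with an offset of 50, at -3.46 (limma adjusted p = 0.0971), and with the scanner software's processed signals, at -4.53 (limma adjusted p = 0.279). The same 2 settings ended the *Hbegf* call, at -1.80 (limma adjusted p = 0.104) and -2.13 (limma adjusted p = 0.279). The *Hbegf* difference lost its call without any 1 of the 4 arrays it rests on, with adjusted p-values from limma of 0.268 and 0.163 without Sox4 cKO replicate 1 or 2 and 0.11 and 0.212 without dcKO replicate 1 or 2. Fitted without the replicate block, the *Hbegf* difference had a limma adjusted p of 0.0578. Against Sox11 cKO cells 0 of 10 genes were called (3 with an unadjusted p below 0.05 in limma), where 0.786% of all genes were. *Hbegf* differed there by -1.57 ± 0.25 (SE; limma adjusted p = 0.0555) and *Areg* by -1.40 ± 0.34 (SE; limma adjusted p = 0.162). Between Sox4 cKO and Sox11 cKO cells limma called 0 of 10 (1 with an unadjusted p below 0.05) and 0.0187% of all genes, and *Areg* differed by 2.45 ± 0.34 (SE; limma adjusted p = 0.124).

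Departure from additivity is the dcKO log2 ratio minus the sum of the Sox4 cKO and Sox11 cKO ratios. *Areg* departed by -3.15 ± 0.42 (SE; limma adjusted p = 0.0389), the 1 of 10 genes called, against 0.585% of all genes. The call rested on the Sox4 cKO and dcKO arrays, with a limma adjusted p of 0.0506 and 0.1 without Sox4 cKO replicate 1 or 2 and of 0.0768 and 0.19 without dcKO replicate 1 or 2, and it was 0.0963 without the replicate block. It was 0.148 with an offset of 50 and 0.36 with the scanner software's processed signals. *Hbegf* departed by -1.99 ± 0.30 (SE; limma adjusted p = 0.0555) and *Egfr* by -1.01 ± 0.25 (SE; limma adjusted p = 0.171), and neither was called. With median centring *Egfr*, *Hbegf* and *Areg* were all called in this contrast.

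**Figure D2:**
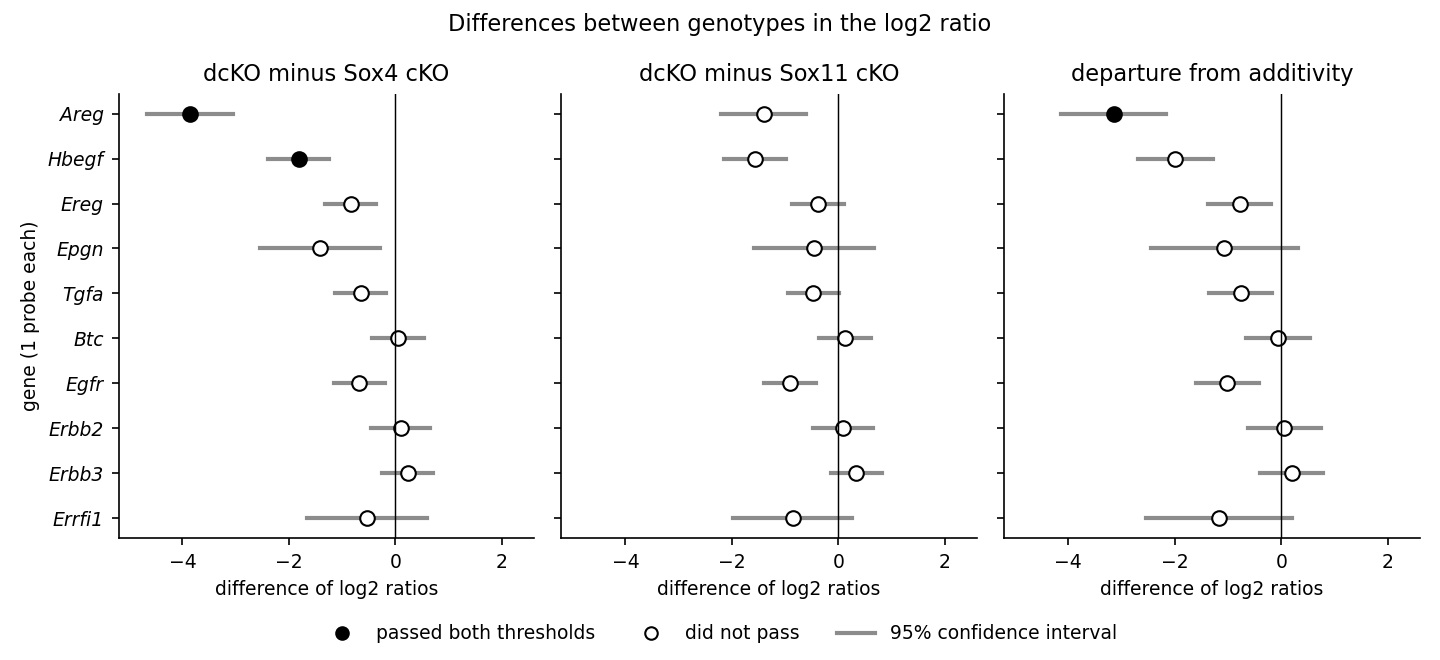
Differences of log2 ratios (horizontal axis) for 10 genes in 3 contrasts. Points are limma estimates, filled where both thresholds were passed, and lines are 95% confidence intervals. *Areg* is filled at -3.86 in dcKO minus Sox4 cKO and at -3.15 in departure from additivity, and *Hbegf* is filled at -1.82 in dcKO minus Sox4 cKO.

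The levels in the separate channels show which side of each ratio varied. They are log2 intensities of 1 probe, scaled between arrays, and are compared only between samples. *Areg* in the wild-type channel stood at 9.89 and 9.91 on the dcKO arrays, 7.23 and 6.82 on the Sox4 cKO arrays, and 9.88 and 7.11 on the Sox11 cKO arrays. In the knockout channel it stood at 8.28 and 7.28 in dcKO, 8.77 and 8.76 in Sox4 cKO, and 9.57 and 6.00 in Sox11 cKO cells. The wild-type channels thus spanned 3.08, more than either dcKO ratio. The mean of the dcKO wild-type channels was 2.14 above the mean of the other 4 wild-type channels, a shift that 52 of 14350 genes above background (0.362%) matched or passed. That rank is a description, since the wild-type level is part of the low ratio and genes of any ratio were ranked. The dcKO knockout channels differed from those other wild-type channels by 0.02. The Sox4 cKO wild-type mean lay -2.17 from the mean of the remaining wild-type channels, with the knockout at -0.43 from it. Neither group's wild type stood alone, however. The wild-type level of *Areg* on Sox11 cKO replicate 2, at 7.11, lay between the 2 Sox4 cKO ones. On Sox11 cKO replicate 1 it was as high as on the dcKO arrays.

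*Hbegf* followed the same arrangement. Its wild-type level was 11.29 and 11.50 on the dcKO arrays, 9.91 and 10.31 on the Sox4 cKO arrays, and 10.99 and 8.97 on the Sox11 cKO arrays. Both dcKO wild-type channels were thus the highest of the 6, by 1.35 on average above the others, a shift that 1.14% of genes above background matched or passed. The limit on the rank of *Areg* holds here too. The dcKO knockout channels, at 9.96 and 10.05, differed from the other wild-type channels by -0.04. *Egfr* had the same order at a smaller size at its brightest probe, with a wild-type shift of 0.64 and a knockout difference of 0.07. At its other 2 probes the dcKO channels averaged 8.21 and 7.94 in knockout and 8.28 and 7.80 in wild-type RNA. The wild-type means there were 7.81 and 7.31 on the Sox4 cKO arrays and 7.37 and 6.78 on the Sox11 cKO arrays. At those probes both dcKO channels thus lay above the wild-type means of the other arrays. Without scaling between arrays the wild-type shifts were 1.87 for *Areg* and 1.08 for *Hbegf*, and the knockout channels lay -0.25 and -0.32 from the other wild-type channels. Whether wild-type cultures of different litters, passages or densities differed is not stated, and its part in these ratios was not tested.

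Some ligands were low in both channels of the same array. *Ereg* stood at 5.88 in wild-type and 5.87 in Sox11 cKO cells on Sox11 cKO replicate 2, whereas its other wild-type channels lay between 8.39 and 9.20. *Areg* and *Hbegf* were also lower in both channels on that array than on Sox11 cKO replicate 1. *Epgn* was lowest in both channels of dcKO replicate 1, at 10.03 in wild-type and 8.98 in knockout cells.

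**Figure D3:**
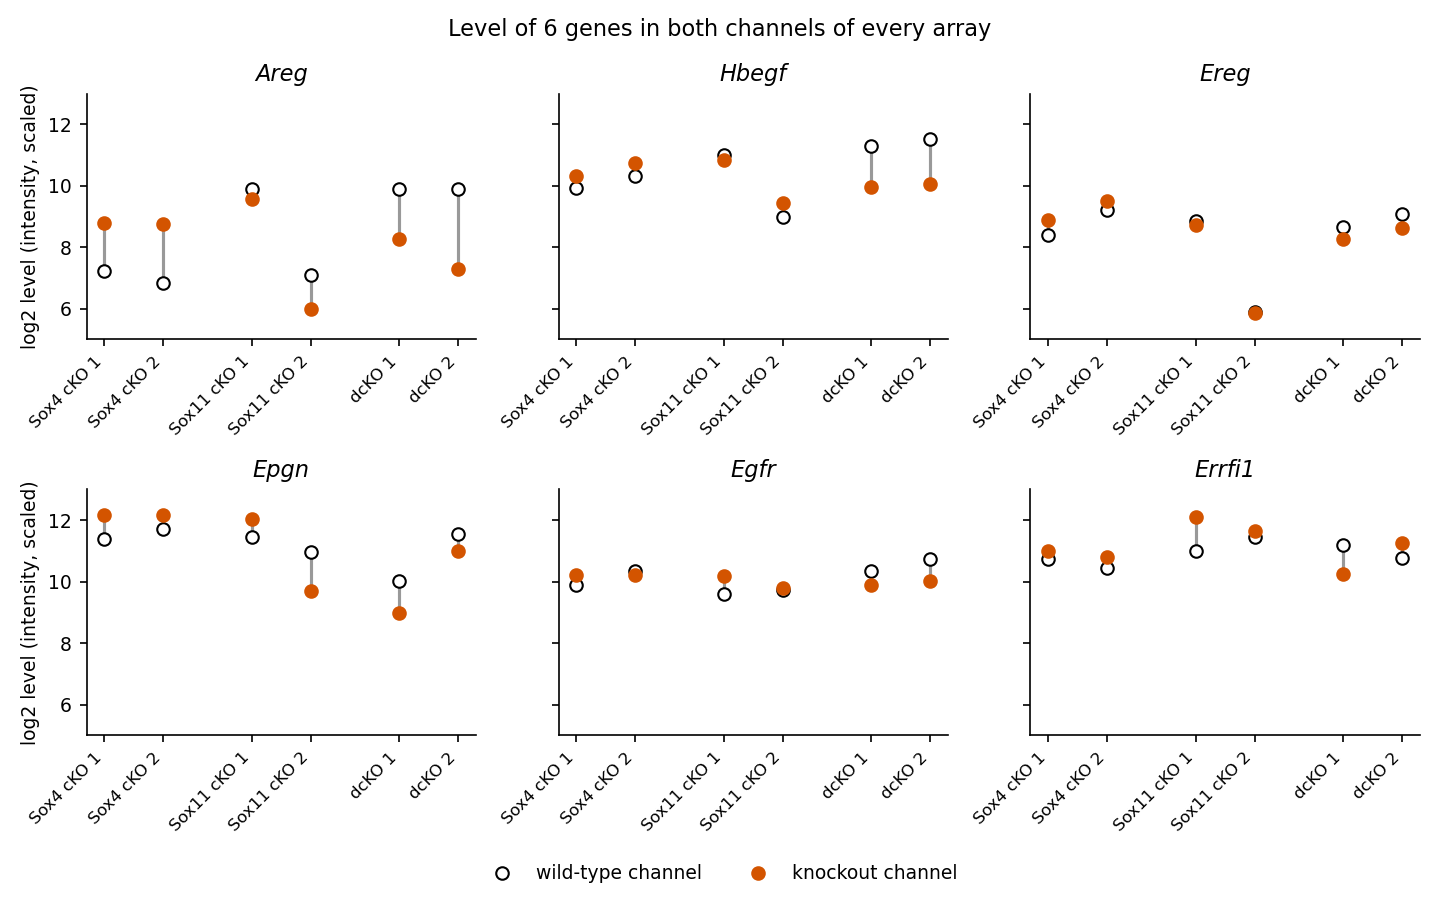
Log2 level (vertical axis, scaled intensity) of 6 genes in the wild-type channel (open circles) and the knockout channel (filled circles) of every array, joined within an array. Open circles of *Areg* range from 6.82 to 9.91, those of *Hbegf* are highest on the dcKO arrays at 11.29 and 11.50, and both *Ereg* channels sit near 5.9 on Sox11 cKO replicate 2.

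The rest of the pathway was then counted by step. Among 6 further EGF family genes, of which 2 were above background in some channel, limma called 0 in any of the 7 comparisons, and in dcKO cells 0 had an unadjusted p below 0.05. *Erbb4*, the other receptor of the family, and *Egf*, the founding ligand, were well above background on 0 arrays in either channel. *Nrg1*, which encodes neuregulin, a ligand of ERBB3 and ERBB4, had dcKO ratios of 0.12 and -0.38. Of 10 genes for ligand shedding 0 were called in any comparison (3 in dcKO cells with an unadjusted p below 0.05). The sheddase gene *Adam17* had dcKO ratios of 0.35 and -0.01, and *Adam10* of 0.59 and 0.51, with an *Adam10* estimate of 0.55 (limma adjusted p = 0.224). Of 23 genes for adaptors and the relay from RAS to ERK and AKT, 0 were called in any comparison by limma (3 in dcKO cells with an unadjusted p below 0.05). The median dcKO estimate was -0.02, -0.02 and -0.06 in these lists. Of 18 receptor inhibitors and turnover genes 1, *Spry1*, which encodes an inhibitor of the RAS to ERK relay, was called, in dcKO minus Sox4 cKO at -1.75 (limma adjusted p = 0.033). Over all genes 1.03% were called in that contrast and 0.59% were called lower, and in dcKO against wild type 1.39% were called. Its dcKO ratios were -0.67 and -1.82, and as its probe was bright enough to be read in wild-type RNA but not in dcKO RNA, it was at least 2.16-fold lower in dcKO cells (limma adjusted p = 0.0168). On the Sox4 cKO arrays *Spry1* was well above background in wild-type RNA on only 1. Its dcKO wild-type channels lay 0.86 above the other wild-type channels, and its dcKO knockout channels -0.39 from them. The *Spry1* call was not rerun under the alternatives.

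Several genes that ERK signalling is known to induce were lower in dcKO cells. Of 14 measured, 5 were called lower and 0 higher, against 0.833% of all genes called lower, and the median estimate was -1.21 against -0.01 over all genes. The list was chosen with earlier results of these data known, so this count is a description. The called genes were *Etv5*, *Etv4*, *Dusp6*, *Fosl1* and *Phlda1*. *Etv5* and *Etv4* encode ETS transcription factors of the PEA3 group. The *Etv5* ratios were -1.95 and -3.49 (estimate -2.72 ± 0.23, SE; limma adjusted p = 0.00311). The *Etv4* ratios were -1.93 and -3.30 (estimate -2.61 ± 0.28, SE; limma adjusted p = 0.00717). In the paper *Etv4* is listed as a direct SOX11 and SOX4 target in embryonic epidermis and keratinocytes. That listing asked for binding of SOX11 and/or SOX4, and for lower expression in dcKO keratinocytes, taken from these same data. It is thus not independent of the *Etv4* ratios given here. Whether *Etv4* fell through SOX binding or through ERK signalling was not tested. *Dusp6*, which encodes a phosphatase that inactivates ERK, had ratios of -2.01 and -2.21 (estimate -2.11 ± 0.18, SE; limma adjusted p = 0.00332). *Fosl1*, which encodes the AP-1 factor FRA1, had ratios of -1.91 and -1.53 (estimate -1.72 ± 0.15, SE; limma adjusted p = 0.00344), and *Phlda1* ratios of -1.24 and -1.83 (estimate -1.54 ± 0.19, SE; limma adjusted p = 0.0114). *Ier3* and *Dusp5* had adjusted p-values under 0.05 in limma, 0.0116 and 0.0395, at smaller estimates of -1.25 and -1.05. Both arrays were above 0 only for *Fos*, the immediate-early AP-1 gene, at 0.91 and 0.36. *Junb* ratios were 0.05 and -0.31, *Myc* ratios 0.01 and -0.16, and *Jun* ratios -0.99 and -0.04, and none of these was called. *Egr1*, *Dusp4* and *Plaur* had estimates of -0.88, -1.16 and -1.36 and were not called either. Without dcKO replicate 1 the called count was 2 and without replicate 2 it was 1, with an offset of 50 it was 2, and with the scanner software's processed signals it was 0.

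Against Sox4 cKO cells 6 of the 14 were lower in dcKO cells, the 5 above and *Dusp5*, and *Fosl1* and *Etv5* departed from additivity (-2.74, limma adjusted p = 0.017, and -3.24, limma adjusted p = 0.0332). Over all genes 0.59% were called lower in the first of these contrasts and 0.585% were called in the second. *Fosl1* was also called against Sox11 cKO cells, at -1.50, at the fold limit (limma adjusted p = 0.0399), where 0.786% of all genes were called. The count against Sox4 cKO cells was 3 without the replicate block. It was 0 without Sox4 cKO replicate 1 or 2, and 3 without dcKO replicate 1 or 2. In Sox4 cKO cells *Fosl1* was higher by 1.24 (limma adjusted p = 0.0418), under the fold limit, and in Sox11 cKO cells limma called 0 of the 14 (5 with an unadjusted p below 0.05).

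The channels of these genes were not all arranged alike. The dcKO knockout channels lay below the other wild-type channels by -1.90 for *Etv4*, -1.64 for *Etv5*, -1.63 for *Dusp6* and -0.96 for *Phlda1*, and their dcKO wild-type channels were 0.71, 1.08, 0.48 and 0.58 above them. *Ier3* and *Dusp4* had knockout differences of -1.14 and -1.35, with wild-type shifts of 0.11 and -0.19. *Fosl1*, *Dusp5* and *Plaur* were nearer to *Areg* and *Hbegf*, with knockout differences of 0.01, 0.15 and -0.30 and wild-type shifts of 1.73, 1.20 and 1.05. In wild-type RNA *Dusp5* was well above background on only 1 of 2 Sox4 cKO and 1 of 2 Sox11 cKO arrays. Its shift, and its call against Sox4 cKO cells, thus rest partly on values near background. In dcKO RNA *Dusp4* was well above background on only 1 of 2 arrays. Among the ligands *Epgn* had its dcKO knockout channels at -1.39 and its dcKO wild-type channels at -0.59 from the other wild-type channels. Differences between these arrangements were not tested.

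**Figure D4:**
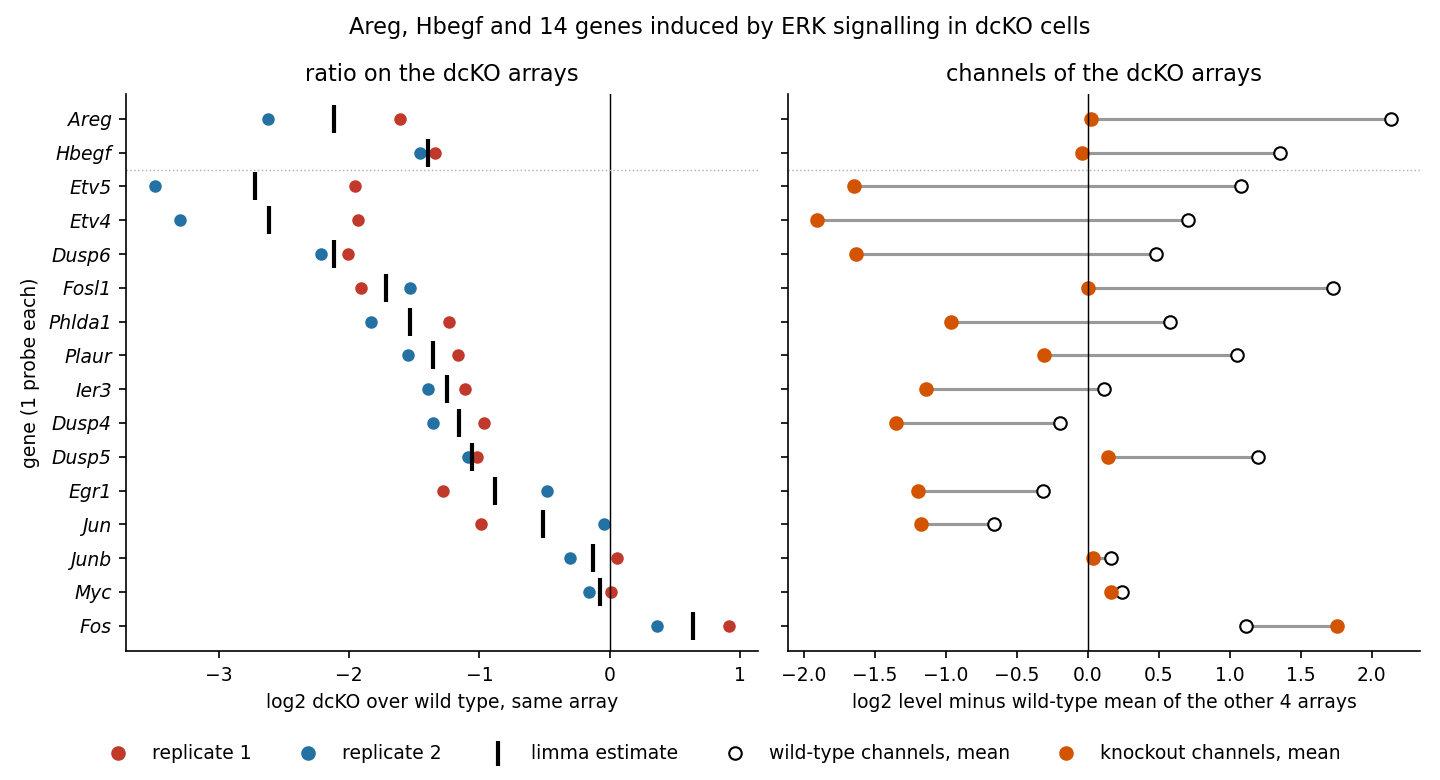
*Areg*, *Hbegf* and 14 ERK-induced genes in dcKO cells. The left panel gives the log2 ratio on each dcKO array (points) with the limma estimate (bar), and the right panel the mean log2 level of the wild-type channels (open) and knockout channels (filled) of the dcKO arrays minus the mean of the other 4 wild-type channels. The filled circles of *Areg* and *Hbegf* sit at 0.02 and -0.04, and those of *Etv4*, *Etv5* and *Dusp6* between -1.90 and -1.63.

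Other keratinocyte states were read beside these values. The wound-edge keratins *Krt6a*, *Krt6b*, *Krt16* and *Krt17* were well above background everywhere, and their median estimate was 0.42, -0.87 and 0.34 in Sox4 cKO, Sox11 cKO and dcKO cells. Limma called 0 of these 4 in each genotype (0, 2 and 0 with an unadjusted p below 0.05). The 2 arrays lay on opposite sides of 0 for *Krt17* in every genotype, at 0.77 and -2.61 in Sox11 cKO cells. They did so for *Krt6b* in Sox4 cKO and *Krt16* in dcKO cells, and the other pairs shared a sign. The 6 differentiation markers with a probe had medians of -0.30, -0.33 and 0.20, and limma called 0 (1, 0 and 3 with an unadjusted p below 0.05). In each genotype 4 of the 6 were well above background in both channels of both arrays, and *Krt1* and *Dsg1a* were not. The dcKO estimates ran from -1.25 for *Lor* to 1.59 for *Dsg1a*, so that median covers both directions. The median of the 8 basal markers was -0.06, -0.38 and 0.01. Their part in the ligand values was not tested.

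The genes with the most similar pattern over the 6 arrays, after removal of the dye effect, were named by the root mean square difference of their log2 ratios, among 11185 genes compared. Nearest to *Egfr* were *Nudc* at 0.05, *Vangl1* at 0.06 and *Smc3* at 0.07. Nearest to *Hbegf* were *Epop* at 0.07, *Dera* at 0.14 and *Pitrm1* at 0.16. *Areg* had no match as close, and its nearest were *Prodh* at 0.46, *Cdkn1c* at 0.48 and *Odc1* at 0.50. *Odc1*, the rate-limiting enzyme of polyamine synthesis, stood at 1.06 in Sox4 cKO, -0.74 in Sox11 cKO and -2.10 in dcKO cells, beside 1.74, -0.71 and -2.12 for *Areg*. These are the closest of many genes, and no test applies to them.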

How the data were processed

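The arrays measured total RNA of Sox4 cKO, Sox11 cKO and dcKO keratinocytes, each against wild-type RNA. The authors' deposited scanner files hold spot intensity per channel from Agilent Feature Extraction 11.0.1.1, as median signals and as signals the software had processed. Their deposited table of log2 ratios, already normalised, served as an alternative.

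Analysis used R 4.3.3 and limma 3.58.1. Median spot signals were corrected by normexp with an offset of 16 and normalised by loess within each array. Of 62976 spots, 3671 control spots were weighted 0, and the 194 to 288 outlier spots per array were set to missing. Values of 55681 probes were fitted over 6 arrays with a term per genotype and a dye term. The knockout was in Cy5 on replicate 1 and in Cy3 on replicate 2 in all genotypes, so the dye term is also a replicate block. Deviations from genotype means were correlated between genotypes at 0.316, 0.244 and 0.125 over probes, and arrays of the same number share the dye orientation. Residual degrees of freedom were 2 and prior ones 5.37. P-values were adjusted by Benjamini-Hochberg over all probes, and 7 comparisons were made. If replicates are not separate cultures, p-values measure technical spread. The fit was tested on simulated data.

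Names came from RefSeq accessions matched to GRCm38.p6, giving 28331 named probes, and the brightest probe per gene is reported. The array design was built on mm9, so coordinates are those of the promoter table. Levels per channel were scaled between arrays (Aquantile). All arrays shared 1 slide and 1 scan. The 10 genes are all named, pathway genes where called, with *Erbb4*, *Egf*, *Nrg1*, *Adam17* and *Adam10* always, and likeness needed signal above background in both channels on 4 arrays. The genes and lists (receptor family, shedding, relay, inhibitors, ERK-induced genes, cell type markers) were chosen with earlier results of these data known, so counts within them are descriptions. Other genes of the ERK list named beside a count, and the channel values of list genes, were chosen after their values were seen.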

Additional observations from a re-analysis of the deposited data

Results flagged for a closer look

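*Ereg* was flagged because 1 of its 6 wild-type channels lay far from the others. On Sox11 cKO replicate 2 it stood at 5.88, and the gap to the nearest channel was 0.757 of the whole range. This gap rule flags about 1 group in 20 by chance, and 10 genes were examined. The knockout channel of that array was as low, at 5.87, so the log2 ratio was -0.01.

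Effects that differed between genotypes flagged 3 further results. The *Areg* log2 ratio was lower in dcKO than in Sox4 cKO cells by -3.86, the *Hbegf* log2 ratio by -1.82, and *Areg* departed from additivity by -3.15. In both comparisons with Sox4 cKO cells the knockout channels differed less than the wild-type channels did. *Areg* averaged 8.77 in Sox4 cKO and 7.78 in dcKO knockout channels, against 7.03 and 9.90 in the wild-type channels of the same arrays. *Hbegf* averaged 10.53 in the Sox4 cKO knockout channels and stood at 9.96 and 10.05 in the dcKO ones, against means of 10.11 and 11.40 in the wild-type channels. Whether the wild-type cultures differed before labelling was not tested.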

How the results depend on the processing

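Called values kept their direction under every alternative run. Some uncalled values near 0 changed sign, such as *Hbegf* in Sox11 cKO cells, at -0.16 without Sox11 cKO replicate 2. With an offset of 50 limma called 0 of the 10 genes in dcKO cells, 0 in dcKO minus Sox4 cKO and 0 in additivity, and 2 and 0 ERK-induced genes in the first 2 of these. With the scanner software's processed signals all 5 counts were 0, and 0 of all probes were called in dcKO cells, against 421 in the reported fit, 78 with the offset of 50, 720 with median centring and 484 in the authors' table. Median centring gave 1 called gene in Sox4 cKO cells (*Areg*), 2 in dcKO cells, 2 in dcKO minus Sox11 cKO and 3 in additivity. It lowered the dcKO estimates of all the 10 genes but *Btc*, with *Erbb2* moving from 0.14 to -0.37 and *Areg* from -2.12 to -2.62. The added calls that involve dcKO cells came with a shift that most of these 10 genes shared. Over all probes the dcKO median was -0.0041 in the reported fit and 0.0251 with median centring. Why the 10 genes moved was not tested. The authors' table gave 1 in Sox4 cKO cells, 1 in dcKO minus Sox11 cKO and 2 in additivity, and so did the filter on dim probes. Subtracting the dye effect first gave 1 in dcKO minus Sox11 cKO and 2 in additivity. Without the replicate block the count was 1 in dcKO minus Sox4 cKO (*Areg*), 0 in additivity and 3 for ERK-induced genes in dcKO minus Sox4 cKO, and the other counts did not move. With a genotype's own arrays only it was 1 in Sox4 cKO cells and 0 in additivity.

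Leaving out 1 array at a time gave counts from 0 to 1 in Sox4 cKO cells, 0 to 1 in dcKO cells, 0 to 2 in dcKO minus Sox4 cKO, 0 to 1 in dcKO minus Sox11 cKO, 0 to 2 in Sox4 cKO minus Sox11 cKO and 0 to 3 in additivity. For ERK-induced genes it gave 1 to 5 in dcKO cells and 0 to 7 in dcKO minus Sox4 cKO. The ERK counts were added to the alternatives after seeing the data. *Areg* in Sox4 cKO cells was called without either Sox11 cKO array (limma adjusted p = 0.00353), and its estimate was 1.09 without Sox4 cKO replicate 2. The cause of these changes was not tested. The alternative with mean spot signals was not run, since mean signals were not analysed here. Averaging the probes of a gene left every member count unchanged.

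Precision is limited by 2 arrays per genotype, by wild-type RNA that differed between arrays and by 1 gene, *Btc*, below background.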
